A study of Mus musculus with 12 samples.

Results

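The genes described are 10 genes of bile acid synthesis and transport in mouse liver. They were chosen by name, as the enzymes Cyp7a1, Cyp8b1, Cyp27a1, Cyp7b1 and Baat, the transporters Abcb11, Slc10a1 and Slco1b2, and the nuclear receptors Nr1h4 and Nr0b2, and their probes were found through the RefSeq accession that the array design gives. All 10 genes were found, with 11 probes of the 39429 on the array, and all 11 probes were well above background on all 12 arrays, so that the 10 genes stand among 16915 genes tested. Of the 10 genes, 0 separated LKO from Floxed livers at an unadjusted limma p below 0.05, a criterion that called 1413 of the tested genes (8.35%, made up of 4.92% higher and 3.43% lower in LKO mice). This split of 832 higher and 581 lower genes became 1127 and 316 when the arrays were scaled by their 75th percentile instead of quantile-normalized. With p-values of limma adjusted over all tested genes by the Benjamini-Hochberg method, 0 of the 10 and 0 of the 16915 passed. The median log2 difference of the 10 genes was -0.020, against -0.0035 over all tested genes, and the differences ran from -0.42 for Cyp7b1 to 0.50 for Nr0b2.

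Bile acids are made from cholesterol in hepatocytes and are the main route by which the body disposes of cholesterol. The classic pathway starts with Cyp7a1 and the alternative pathway with Cyp27a1 and Cyp7b1, and Cyp8b1 sets the share of cholic acid. The finished acids are joined to taurine or glycine by Baat, pumped into bile by Abcb11 and taken back from portal blood by Slc10a1 and Slco1b2. In the liver, bile acids activate the receptor FXR, encoded by Nr1h4. FXR induces the corepressor SHP, encoded by Nr0b2, and the exporter Abcb11, and Cyp7a1 is known to be repressed in turn.

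The arrays compared liver RNA of 6 LKO mice (Alb+/Cre;Phgdh flox/flox) with that of 6 littermate Floxed controls (Phgdh flox/flox), all male, 30 weeks old, on C57BL/6 background and fed chow that held casein. Both groups carry the floxed alleles, and only LKO mice carry Cre, which the albumin promoter drives in hepatocytes, so that other liver cells keep Phgdh, the first enzyme of serine synthesis. Labeled RNA of each mouse went onto a single-color Agilent array. Floxed mice 1 to 4 shared slide 1, and LKO mice 3 to 6 shared slide 3. Floxed mice 5 and 6 were on slide 2 together with LKO mice 1 and 2, so that only this slide allows a comparison of the genotypes within it. Slide 1 held Floxed mice only and slide 3 LKO mice only, so slide and genotype cannot be told apart between these slides.

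The Phgdh probe averaged 5.18 ± 0.23 in the Floxed group and 4.70 ± 0.41 in the group labeled LKO (log2 intensity ± SD, n = 6 each). On the arrays labeled LKO 1 and LKO 2 it read 5.07 and 5.30, inside the Floxed range of 4.81 to 5.50, so the values below are also given without these arrays where that matters. The comparison within slide 2 therefore sets Floxed mice against LKO arrays on which Phgdh was not below the Floxed range, and this holds for every value within slide 2 given below. The LKO arrays below the Floxed range, at 4.23 to 4.66, were all on slide 3. A low Phgdh reading and slide therefore cannot be told apart. Whether the probe lies in the deleted exons was not analysed here. The study detected the deleted Phgdh allele in LKO liver, where Phgdh mRNA and protein were lower than in Floxed liver. It does not say whether the same mice went onto the arrays. Any pair of arrays correlated at 0.979 to 0.996 over the tested genes, 21614 to 24252 probes per array were well above background, and no spot was saturated. All 9 hepatocyte markers were tested and 0 of them was called, against 8.35% of all tested genes. The RNA is from whole liver, in which fewer cells of a type and less RNA per cell cannot be told apart.

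The plot of the 10 genes by mouse shows each mouse against the Floxed mean, and in every gene the genotypes overlapped. Over all tested genes the groups did not overlap in 0.296%.

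**Figure D1:**
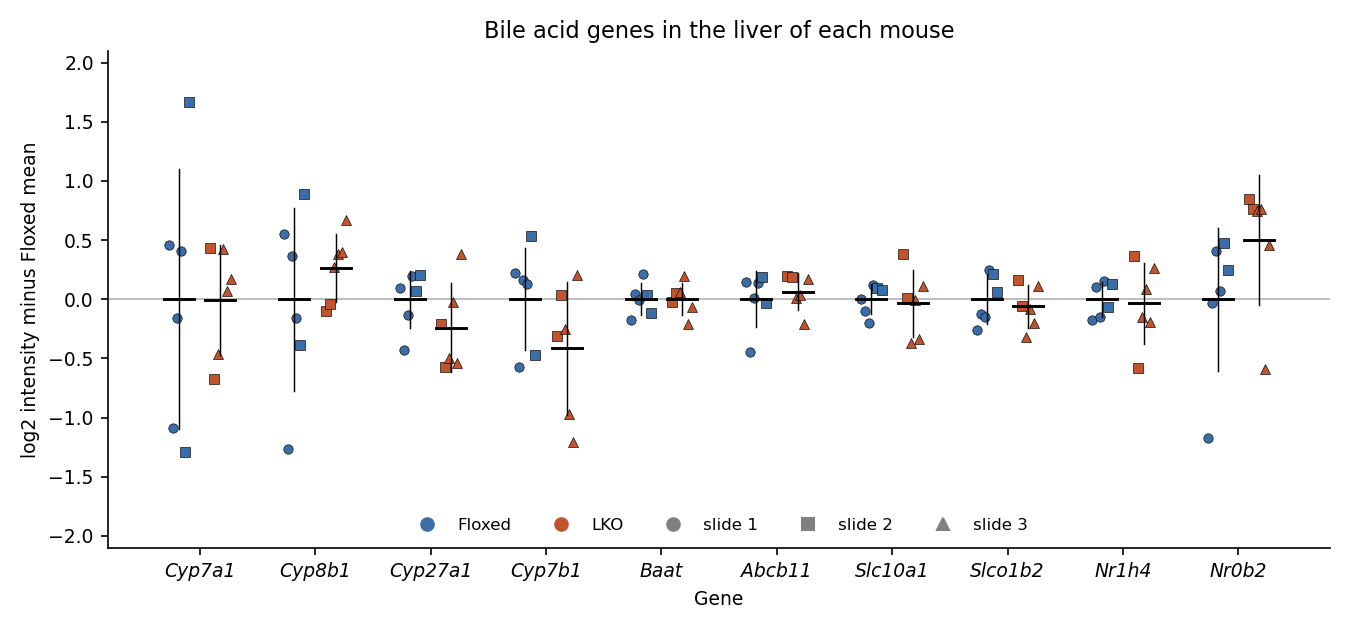
Log2 intensity of the 10 bile acid genes (x axis) in each mouse, minus the mean of the Floxed mice (y axis). Points are mice, with the marker giving the slide, horizontal bars are means and vertical bars are SD (n = 6 per genotype). Cyp7a1 had the widest spread among these genes and Baat the narrowest, and no gene had separate groups.

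Cyp7a1, the rate-limiting enzyme of the classic pathway, had nearly equal means in the genotypes, within a wide spread. Its log2 intensity had a lowest value of 7.57, a median of 8.98 and a highest value of 10.53 in Floxed mice, and a lowest value of 8.18, a median of 8.98 and a highest value of 9.30 in LKO mice. All 6 LKO mice lay inside the Floxed range, whose ends were Floxed mouse 5 and Floxed mouse 6. LKO minus Floxed was -0.0063 on the log2 scale (standard error 0.43, limma adjusted p = 0.999), with p = 0.985 in an exact permutation of the 12 mice. As a fold, LKO over Floxed was 0.996 with a 95% interval of 0.522 to 1.90, so that these arrays do not exclude a change of up to that size in either direction.

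The spread itself set Cyp7a1 apart from most of the array. Its SD within a genotype, pooled over both, was 0.84 on the log2 scale, at percentile 99.1 of the tested genes. The 12 mice covered a 7.79-fold range, and all of this range was found among the Floxed mice, while the LKO mice covered 2.16-fold. The SD was 1.10 in Floxed mice and 0.46 in LKO mice, a ratio of 2.38, and 95.5% of the tested genes had an equal or smaller ratio. Whether the spread differed between the genotypes was not tested. The genes whose values followed Cyp7a1 best over the 12 arrays, after the mean of each genotype was subtracted, were Gcdh (Pearson r = 0.92), Lzic (r = 0.88) and Scaf8 (r = 0.88). They are the highest of 12509 genes compared, which is given as a description.

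Cyp8b1, the sterol hydroxylase that leads toward cholic acid, showed the same picture. The lowest, median and highest log2 intensities were 8.44, 9.80 and 10.59 in Floxed mice. In LKO mice they were 9.60, 10.03 and 10.37, and again all 6 LKO mice lay inside the Floxed range. The means differed by 0.26 on the log2 scale (standard error 0.30, limma adjusted p = 0.946), with an exact permutation p of 0.487 and a fold of 1.20 (95% interval 0.765 to 1.89). The SD was 0.77 in Floxed mice and 0.29 in LKO mice, a ratio of 2.67 that 97.2% of the tested genes did not exceed. Without Floxed mouse 2, the lowest mouse, the difference was 0.012. LKO mice of slide 3 lay 0.56 above Floxed mice of slide 1, whereas within slide 2 the LKO mice lay 0.32 below the Floxed mice on the log2 scale. On slide 2 the LKO mice, at 9.60 and 9.66, lay between the Floxed mice, at 9.31 and 10.59. That contrast gave an unadjusted limma p of 0.481 for the 2 against 2 mice alone and of 0.552 with slide as a fixed block. Between slides 1 and 3, slide and genotype cannot be told apart.

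In the alternative pathway both hydroxylases had lower means in LKO mice, and neither passed the test. Cyp27a1, the mitochondrial hydroxylase of the sterol side chain, had log2 intensities with a lowest value of 9.16, a median of 9.68 and a highest value of 9.80 in Floxed mice, and of 9.03, 9.24 and 9.98 in LKO mice. Of the 6 LKO mice, 5 lay below the Floxed median, while LKO mouse 6 had the highest value of all. The log2 difference was -0.24 (standard error 0.17, limma p = 0.177, adjusted p = 0.832), with an exact permutation p of 0.212 and a fold of 0.846 (95% interval 0.656 to 1.09). Within slide 2 the difference was -0.53. That comparison gave an unadjusted limma p of 0.0322 for the 2 against 2 mice alone and of 0.107 with slide as a fixed block over all 12 mice. Leaving out single mice gave log2 differences from -0.37 without LKO mouse 6 (unadjusted limma p of 0.0229) to -0.18 without LKO mouse 2 (unadjusted limma p of 0.330), and without both LKO mice of slide 2 it was -0.17.

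Cyp27a1 was the only one of the 10 genes printed many times on each array, and so its measurement error could be set beside the variation among mice. The plot of the repeated spots shows the 10 spots of its probe on each array. Their SD within an array had a median of 0.079 and ran from 0.058 to 0.15 on the log2 scale, and the standard error of an array's mean was at most 0.046. Among mice, the SD of these means was 0.24 in Floxed mice and 0.38 in LKO mice. The spread among mice in Cyp27a1 was therefore larger than the error between spots, and on the array of LKO mouse 1 a single spot lay well under the other 9. The spots share an array and its labeled RNA, so they carry no information on the error of labeling or hybridization.

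**Figure D2:**
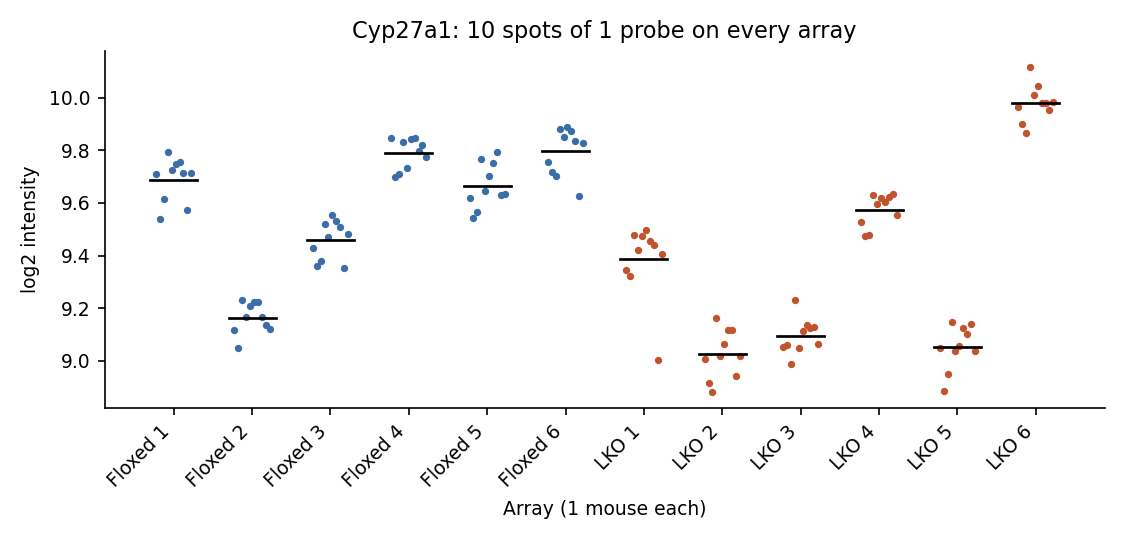
Log2 intensity (y axis) of the 10 spots of the Cyp27a1 probe on each of the 12 arrays (x axis, 1 mouse each), blue for Floxed and orange for LKO, with a bar at the mean of each array. The spots of an array lie close together, with an SD of 0.058 to 0.15, compared with the distance between arrays.

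Cyp7b1, the oxysterol hydroxylase, is known in mouse liver for its higher level in males. The lowest, median and highest log2 intensities were 13.17, 13.88 and 14.28 in Floxed mice and 12.54, 13.46 and 13.95 in LKO mice. LKO mouse 5 and LKO mouse 4 had the lowest values, and 5 of the 6 LKO mice lay below the Floxed median. The means gave a log2 difference of -0.42 (standard error 0.26, limma p = 0.132, adjusted p = 0.779), with an exact permutation p of 0.186 and a fold of 0.750 (95% interval 0.509 to 1.10). It was -0.17 within slide 2 and -0.54 between slide 3 and slide 1. Of 11 tested genes in a list of other male-biased liver genes, 1 was called, the cytochrome Cyp2d9, with a log2 difference of -0.31 (standard error 0.13, limma adjusted p = 0.565), and the median of the list was -0.071, against 8.35% of all tested genes called.

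Baat, which joins bile acids to taurine or glycine, was the steadiest of the 10 genes. The lowest, median and highest log2 intensities were 10.41, 10.60 and 10.80 in Floxed mice and 10.37, 10.60 and 10.78 in LKO mice, so that the groups covered almost the same range. LKO minus Floxed was 0.0044 on the log2 scale (standard error 0.087, limma adjusted p = 0.997). The interval for the fold, 0.880 to 1.14, was the narrowest among the 10 genes. Its SD within a genotype, 0.14, lay at percentile 18.8 of the tested genes, in contrast to Cyp7a1, Cyp8b1 (percentile 96.3), Nr0b2 (percentile 96.0) and Cyp7b1 (percentile 93.6).

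The transporters of the hepatocyte membrane differed little between the genotypes, with intervals that, on the brightest probe of each gene, reached at most 1.24-fold upward and 0.810-fold downward. Abcb11, the bile salt export pump, had log2 intensities with a lowest value of 13.96, a median of 14.49 and a highest value of 14.60 in Floxed mice and of 14.20, 14.51 and 14.61 in LKO mice. The means differed by 0.065 on the log2 scale (standard error 0.11, limma adjusted p = 0.972), a fold of 1.05 with a 95% interval of 0.881 to 1.24. The lowest mouse was Floxed mouse 2, and without it the difference was -0.024.

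Slc10a1, the sodium-taurocholate cotransporter NTCP, was read by a bright and by a dimmer probe. On the bright probe the lowest, median and highest log2 intensities were 16.68, 16.92 and 17.00 in Floxed mice and 16.51, 16.88 and 17.27 in LKO mice. This gave a log2 difference of -0.033 (standard error 0.12, limma adjusted p = 0.981), a fold of 0.977 with a 95% interval of 0.812 to 1.18. On the other probe the difference was -0.14 (standard error 0.19, limma adjusted p = 0.949 over all kept probes). The probes differed in how they ordered the mice, with a Pearson r of 0.41 and a Spearman rho of 0.59 over the 12 arrays, given as a description of probes that share their arrays. On the bright probe the SD was 0.13 in Floxed mice and 0.28 in LKO mice, a ratio of 0.44 at percentile 5.99 of the tested genes. On the dimmer probe the SD was 0.41 in Floxed mice and 0.32 in LKO mice.

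Slco1b2, the transporter OATP1B2 that takes up bile acids and many drugs without sodium, had log2 intensities with a lowest value of 15.33, a median of 15.55 and a highest value of 15.83 in Floxed mice and of 15.27, 15.52 and 15.75 in LKO mice. LKO minus Floxed was -0.061 on the log2 scale (standard error 0.11, limma adjusted p = 0.972), a fold of 0.959 with a 95% interval of 0.810 to 1.14. For each of these transporters the genotypes overlapped.

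Nr1h4, which encodes FXR, had log2 intensities with a lowest value of 12.83, a median of 13.02 and a highest value of 13.15 in Floxed mice and of 12.42, 12.97 and 13.37 in LKO mice. The LKO mice reached further in both directions, LKO mouse 2 at the bottom and LKO mouse 1 at the top, with an SD of 0.35 against 0.15 in Floxed mice. The ratio of the Floxed to the LKO SD was 0.43, at percentile 5.23 of the tested genes. The means gave a log2 difference of -0.035 (standard error 0.14, limma adjusted p = 0.983), a fold of 0.976 with a 95% interval of 0.786 to 1.21.

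Nr0b2, which encodes SHP, had the largest difference of the 10 genes and the widest uncertainty after Cyp7a1 and Cyp8b1. Its lowest, median and highest log2 intensities were 7.28, 8.61 and 8.92 in Floxed mice and 7.86, 9.20 and 9.30 in LKO mice. LKO mice 1 to 4 lay above every Floxed mouse, LKO mouse 6 lay at 8.90, and LKO mouse 5 lay below 5 of the 6 Floxed mice. The log2 difference was 0.50 (standard error 0.30, limma p = 0.119, adjusted p = 0.754), a fold of 1.41 with a 95% interval of 0.903 to 2.21, with an exact permutation p of 0.184. Within slide 2 the difference was 0.44, with an unadjusted limma p of 0.0347 for these 2 against 2 mice alone and of 0.393 with slide as a fixed block over all 12 mice. The value rested on single mice in both groups. Without LKO mouse 5 the log2 difference was 0.72 (unadjusted limma p of 0.0140), without Floxed mouse 1 it was 0.26 (unadjusted limma p of 0.286), and without both LKO mice of slide 2 it was 0.34.

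**Figure D3:**
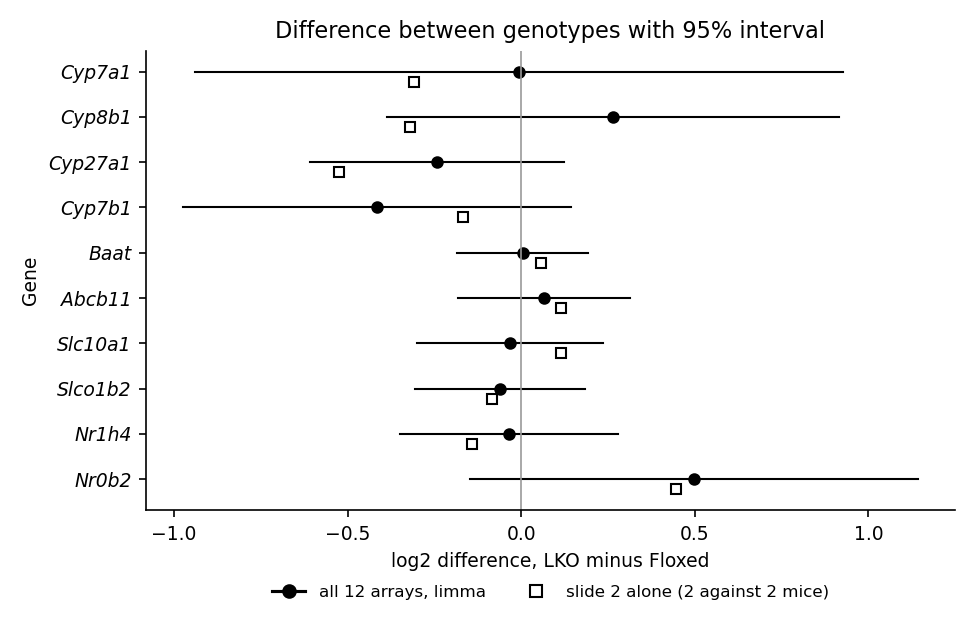
Log2 difference, LKO minus Floxed (x axis), of the 10 bile acid genes (y axis) from limma over all 12 arrays, with 95% intervals, and the difference within slide 2 as open squares. All 10 intervals include 0, and Cyp8b1 and Slc10a1 have the opposite sign within slide 2.

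Without the arrays labeled LKO 1 and LKO 2, 0 of the 10 genes was called, against 2172 of 16915 tested genes. The differences then ran from -0.56 for Cyp7b1 to 0.43 for Cyp8b1.

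Whether the 10 genes varied together among mice was examined over all 45 pairs, after the mean of each genotype was subtracted, with permutations of the mice within each genotype. After Benjamini-Hochberg adjustment over the 45 pairs, Pearson's r passed for 2 pairs. Slc10a1 and Slco1b2, which both take up bile acids from blood, had r = 0.80 (permutation p = 0.00139, adjusted p = 0.0313) and Spearman's rho = 0.89 (permutation p = 0.000220, adjusted p = 0.00990). Cyp7b1 and Abcb11 had r = 0.78 (permutation p = 0.000550, adjusted p = 0.0247), but rho = 0.66 did not pass (permutation p = 0.0182, adjusted p = 0.225). Without the 2 mice farthest from the median of the first gene, r was 0.72 for Slc10a1 and Slco1b2 and 0.77 for Cyp7b1 and Abcb11. For Cyp7b1 and Abcb11 the mice left out were LKO mice 5 and 4. Floxed mouse 2, the lowest Floxed mouse in both of these genes, stayed in, so this check cannot show whether r rested on that mouse.

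Whether these pairs passed depended on the processing. With the mean of each slide subtracted, r was 0.72 for Slc10a1 and Slco1b2 and 0.73 for Cyp7b1 and Abcb11, and 0 of the 45 pairs passed (adjusted p = 0.154 for both). A slide held only 4 mice, too few for a value within it. With the dimmer Slc10a1 probe, r with Slco1b2 was 0.54 (permutation p = 0.0934). The brightness of the array moved with several of these genes. Over the 12 arrays, after subtraction of the genotype means, the log2 75th percentile of the unnormalized intensity had an r of 0.72 with Slco1b2, 0.70 with Nr0b2, 0.67 with Abcb11, 0.62 with Cyp27a1, 0.60 with Baat and 0.59 with Slc10a1, and its part in these relations was not tested. The mean of the hepatocyte markers, treated alike, had its highest r with Abcb11 (0.56) and Cyp7b1 (0.48). Its r was -0.12 with Slc10a1 and -0.21 with Slco1b2, and its part was not tested either.

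Cyp7a1 and Cyp8b1 had r = 0.74 (permutation p = 0.0359, adjusted p = 0.268) and rho = 0.66 (permutation p = 0.0632, adjusted p = 0.357), and did not pass the adjustment. Without Floxed mice 5 and 6, the extremes of Cyp7a1, r was 0.65. Nr0b2, the repressor, and Cyp7a1 had r = -0.17 (permutation p = 0.644, adjusted p = 0.869) and rho = -0.30 (permutation p = 0.402).

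**Figure D4:**
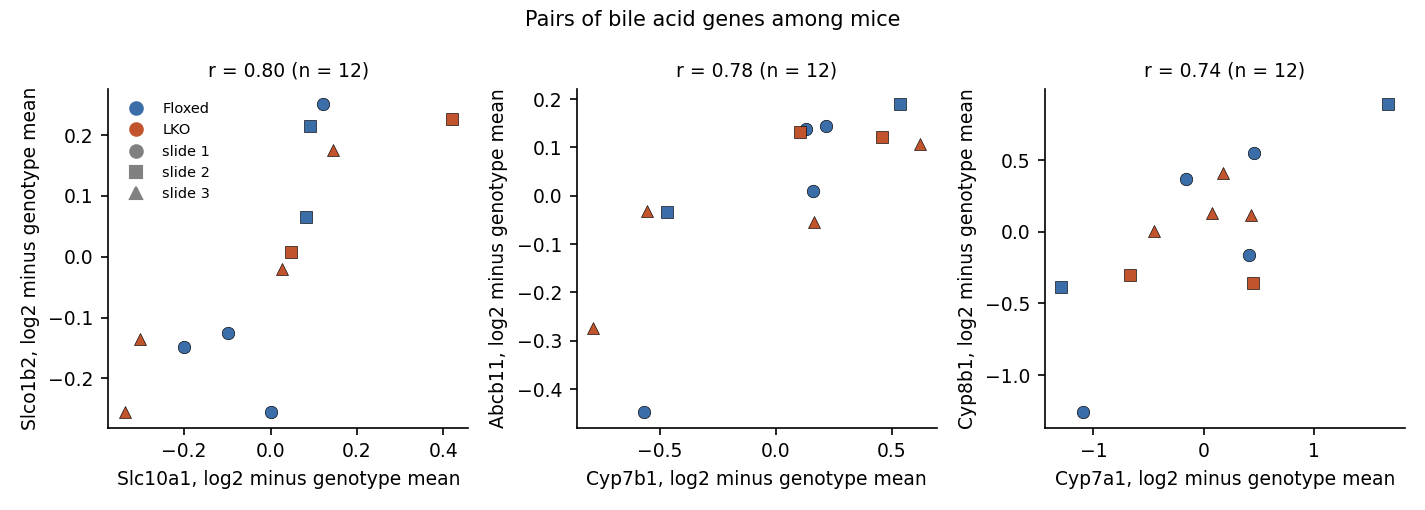
Log2 intensity of 3 pairs of bile acid genes in each mouse, minus the mean of its genotype on both axes, with color for genotype and marker for slide (n = 12). Slc10a1 against Slco1b2 (r = 0.80), Cyp7b1 against Abcb11 (r = 0.78) and Cyp7a1 against Cyp8b1 (r = 0.74) rise together, and in the last pair the extremes are Floxed mice.

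Promoter sequence is shown for the transporters, because the pairs that passed the adjustment in the main analysis involve them. Cyp7b1, a member of 1 of these pairs, had no window, and any part of promoter sequence in the pairs was not tested. The RefSeq table (GRCm38.p6) gave 8 windows for 7 of the 10 genes, Cyp27a1, Cyp8b1, Abcb11, Slc10a1, Slco1b2, Nr1h4 and Nr0b2, with 2 windows for Slc10a1. The 250 bases before each start site were searched on both strands, with the exact letters, for AGGTCA and TGACCT with any 1 base between them, the inverted repeat that FXR with RXR prefers, AGGTCA and AGGTCA with any 1 base between them, a direct repeat bound by HNF4A, CAAGGTCA, a site of the Cyp7a1 activator LRH-1, GTTAAT and ATTAAC with any 1 base between them, a site of HNF1, and TGACGTCA, the cyclic AMP response element. The 8 windows held 0 matches, and over all 32851 windows the shares were 0.00609%, 0.0335%, 1.33%, 0.00913% and 1.55%, in this order. The core AGGTCA, which is part of the first 3 motifs and was added after the search, was present in 4 of the 8 windows, against 14.0% of all windows. Besides windows of Abcb11, Slc10a1 and Slco1b2, that of Nr1h4, a gene in neither pair, held it, at -214 from the start site. The windows of the transporters that hold this core, with the core or its reverse complement TGACCT in capitals, lie at chr2:69342617-69342866 (strand -) for Abcb11, at chr12:80968080-80968329 (strand -) for Slc10a1 and at chr6:141629268-141629517 (strand +) for Slco1b2, each printed 5′ to 3′ on the strand of the gene.
Abcb11: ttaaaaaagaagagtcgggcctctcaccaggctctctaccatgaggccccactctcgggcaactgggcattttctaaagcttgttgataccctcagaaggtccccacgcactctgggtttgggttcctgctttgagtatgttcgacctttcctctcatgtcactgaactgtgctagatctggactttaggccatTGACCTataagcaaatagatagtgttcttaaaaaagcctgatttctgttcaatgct
Slc10a1: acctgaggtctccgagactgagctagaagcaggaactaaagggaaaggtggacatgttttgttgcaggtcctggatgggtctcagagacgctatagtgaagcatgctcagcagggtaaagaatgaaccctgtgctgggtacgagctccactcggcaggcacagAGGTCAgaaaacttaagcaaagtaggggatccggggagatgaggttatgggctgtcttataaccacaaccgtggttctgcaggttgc
Slco1b2: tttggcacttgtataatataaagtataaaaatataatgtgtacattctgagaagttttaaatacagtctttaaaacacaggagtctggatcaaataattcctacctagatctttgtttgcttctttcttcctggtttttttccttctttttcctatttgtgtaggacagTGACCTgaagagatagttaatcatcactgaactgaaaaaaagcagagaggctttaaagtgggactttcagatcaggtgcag
The first letter of the core stood at -56, -87 and -81 from the start site, respectively. The other Slc10a1 window, before the outermost start site, did not hold it. A match of letters is a description and not a site of binding.

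Other genes of the pathway were taken from 3 lists with 47 genes in all. Of 44 tested genes, 2 were called, both higher in LKO mice (4.55%, against 8.35% of all tested genes in either direction and 4.92% in the higher direction), 0 were lower, and the median log2 difference was -0.014. Among 14 tested synthesis enzymes 1 was called, Cyp46a1, a cholesterol hydroxylase best known from neurons, with log2 intensities of 5.93 to 6.83 (median 6.53) in Floxed mice and 6.43 to 8.71 (median 7.80) in LKO mice. The means differed by 1.11 on the log2 scale (standard error 0.35, limma adjusted p = 0.371). LKO mice of slide 3 lay 1.60 above the arrays labeled LKO 1 and LKO 2 of slide 2, the arrays with Phgdh inside the Floxed range. The difference was -0.043 within slide 2 and 1.65 over all slides without these arrays. Among LKO mice, slide and the Phgdh reading cannot be told apart. Ch25h, another cholesterol hydroxylase, was well above background on 6 arrays only and was not tested.

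Among the other synthesis enzymes the log2 difference was -0.0017 for Hsd3b7 and 0.15 for Akr1d1, which modify the sterol ring, and -0.21 for Cyp2c70, which makes muricholic acids in the mouse. It was -0.10 for Amacr and -0.017 for Acox2, which take part in the shortening of the side chain in peroxisomes, and 0.044 for Slc27a5, which activates bile acids for conjugation. None of these was called, and their adjusted limma p lay between 0.748 and 0.999 with the rest of the list, Cyp46a1 aside.

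Among 15 other tested transporters 1 was called, Abcc4, an exporter of the basolateral membrane known to rise in cholestasis. Log2 intensities of 6.22 to 6.65 (median 6.43) were found in the Floxed group and of 6.47 to 7.41 (median 6.83) in the LKO group, which overlapped. LKO minus Floxed was 0.40 on the log2 scale (standard error 0.15, limma adjusted p = 0.438). Within slide 2 it was 0.25, and Abcc4 was no longer called once slide entered the fit as a fixed block (unadjusted limma p of 0.374). With normexp background correction the difference was 0.21 (unadjusted limma p of 0.0473). Other exporters of that membrane gave a log2 difference of 0.54 for Slc51b (standard error 0.37) and 0.045 for Abcc3 (standard error 0.087), neither called. At the canalicular membrane the log2 difference was 0.53 for Abcb1a, 0.052 for Abcb4, -0.13 for Abcc2, -0.26 for Abcg5, -0.33 for Abcg8 and -0.31 for the flippase Atp8b1. None of these was called in the main fit. The unadjusted limma p was 0.0630 for Abcb1a and 0.0632 for Atp8b1, and some alternatives called them. Among these were 75th percentile scaling and normexp correction for Abcb1a, and the replicate number as a block for Atp8b1. Slc51a, the partner of Slc51b, was well above background on 0 arrays.

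Among 15 tested regulators 0 were called, and 11 of 15 had a lower mean in LKO mice, with a median of -0.10. Of all tested genes 8.35% were called and 8658 of 16915 had a lower mean. Prox1, a corepressor of Cyp7a1, had the largest log2 difference, -0.36 (standard error 0.22, limma adjusted p = 0.768). The difference was -0.15 for Nr5a2, which encodes LRH-1, -0.13 for Hnf4a, -0.22 for Nr1i2, which encodes PXR, 0.073 for Fgfr4 and 0.0015 for Klb, the receptor and coreceptor of intestinal FGF15.

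**Figure D5:**
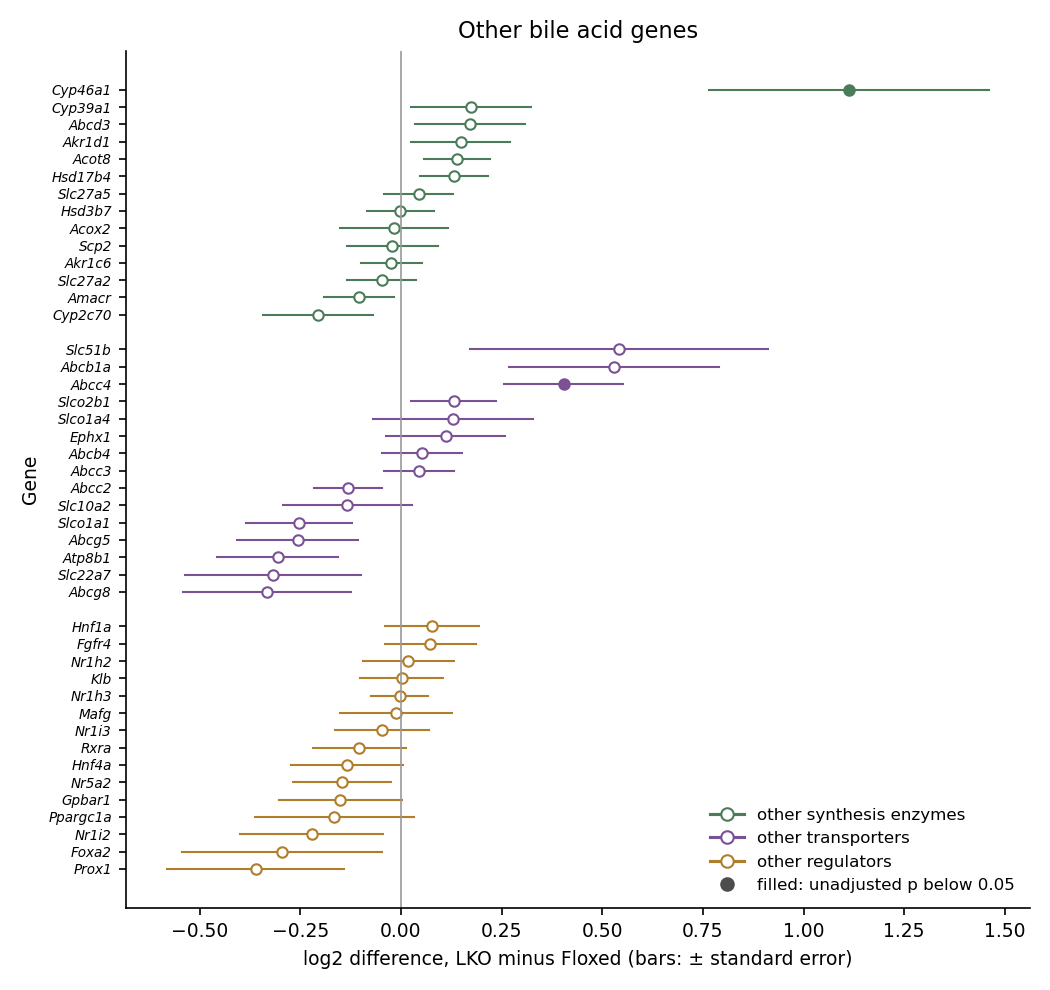
Log2 difference, LKO minus Floxed (x axis), of 44 other tested bile acid genes (y axis) in 3 lists, with bars for the standard error (n = 6 per genotype) and filled points for an unadjusted limma p below 0.05. Only Cyp46a1 and Abcc4 are filled, both at higher values in LKO mice.

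Genes that bear on the level of bile acid genes in liver gave the following values. Cyp7a1 is known to follow the circadian clock, and the time of day of sampling is not given in the sources used here. Of 11 tested clock genes 2 were called, both lower in LKO mice, against 8.35% of all tested genes called and 3.43% called lower. Per1 had a log2 difference of -1.15 (standard error 0.27, limma adjusted p = 0.257), and Hlf of -0.28 (standard error 0.11, limma adjusted p = 0.490). Within slide 2 several clock genes differed by more than over all arrays. The values there were -2.94 for Dbp, -1.51 for Per1, -1.42 for Per2, -1.23 for Tef, 1.73 for Arntl and 1.17 for Nfil3. The other tested clock genes lay between -0.81 and 0.42 there. The slide 2 values of Cyp27a1 and Nr0b2 come from the same mice, and the part of the clock in them was not tested. In 20 relations of the 10 genes with Per1 and with the clock output gene Dbp over the 12 mice, chosen after the values were seen, none passed the adjustment. The highest was Nr1h4 with Dbp (r = 0.67, permutation p = 0.0301, adjusted p = 0.602, and rho = 0.54, permutation p = 0.0968). Of 9 pericentral genes, the zone in which Cyp7a1 is expressed, 1 was called, Lgr5, with a log2 difference of 0.30 (limma adjusted p = 0.565), against 4.92% of all tested genes called higher.

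The counts called in the marker lists stand against 8.35% of all tested genes called, and 8658 of the 16915 tested genes had a lower mean in LKO mice. The mean log2 deviation of a list on each array is given as its range over the mice. Of 9 cholangiocyte markers, the cells that line bile ducts, 4 were well above background on all arrays, with deviations of -0.27 to 0.33 in the Floxed group and of -0.45 to 0.23 in the LKO group. Cftr, a chloride channel, was called in this list with a log2 difference of -0.83 (limma adjusted p = 0.592), while Krt7 and Epcam were well above background on 2 and 1 arrays. For hepatocyte markers the deviations were -0.040 to 0.066 in the Floxed group and -0.077 to 0.040 in the LKO group. Of 7 Kupffer cell markers 0 were called and all 7 had a lower mean in LKO mice, of 6 stellate cell markers 0 were called, and of 6 sinusoidal endothelial markers Pecam1 was called with a log2 difference of 0.70 (limma adjusted p = 0.273, and 0.042 within slide 2). Of 7 intestinal markers 2 were tested, and Fabp2, which hepatocytes may also express, was called with a log2 difference of 0.47 (limma adjusted p = 0.501), while Fabp6 and Cdx2 were well above background on 0 arrays. Of 8 pancreas acinar markers 2 were tested and 0 called. The part of these cells and of the clock in the values of the 10 genes was not tested.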

How the data were processed

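Total RNA of 12 livers was measured on Agilent mouse arrays, and the members and gene lists were chosen with earlier results of these data known. The authors deposited the scanner software's intensity values for each array (Feature Extraction 10.7.1.1 per the file headers, while the submitters' notes name 9.5.1.1), with background and spatial trends removed but left unnormalized across arrays, as well as a quantile-normalized intensity table. The array was annotated on mm9, so probes were given no coordinates, and promoter windows carry those of the RefSeq table (GRCm38.p6).

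The processed intensity of 43020 spots was log2-transformed and quantile-normalized, as in the authors' methods. Setting outlier spots (0.298%) missing and averaging the spots of a probe were choices made here. In place of a detection p-value, a probe was kept if at least 0.5 of its spots were marked well above background on all 12 arrays (20404 probes). Of 28389 probes with a RefSeq accession 94.3% matched a gene, and the brightest probe stood for a gene. A further 1 gene, for which limma gave no p-value, was left out. Genotypes were compared with limma 3.58.1 in R 4.3.3 without covariates, over 16915 genes, at an unadjusted p below 0.05. The exact permutation test of a single gene was two-sided and ran over 924 arrangements, and correlations used 100000 permutations. The fit was tested on simulated data. The number of arrays limits the precision.

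The genes named are the 10 members, Phgdh, the called genes of each list, and the 3 genes most like Cyp7a1. Other list members are named as examples by their role or by the size of their difference. The controls were littermates, but the labels do not say that a replicate number marks a litter. A further number in the sample titles was adjacent between same-numbered mice in every case, and its meaning is not given. The deviations of same-numbered mice correlated at -0.24 to 0.32, with 3 of 6 pairs over 0.1. The main fit did not pair the mice, and whether they were matched by litter cannot be told from the labels. With the replicate number as a block, the unadjusted limma p of Cyp27a1 was 0.0561, against 0.177 in the main fit. Alternatives covered normalization, background correction, the authors' table, filters, outlier flags, probes, slide, replicate number, arrays left out, threshold and the methods' t-test. The arrays left out together and 2 checks of the correlations were added after the data were seen.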

Additional observations from a re-analysis of the deposited data

Results flagged for a closer look

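In 26 groups of 6 mice, for the 10 bile acid genes, Phgdh, Cyp46a1 and Abcc4 in either genotype, the most extreme mouse was set against the nearest other mouse, with the gap divided by the range (Dixon). This quotient was past its 95% critical value in 3 groups, while chance gives about 1.3. Nr0b2 was at a log2 intensity of 7.28 in Floxed mouse 1, below the 8.41 to 8.92 of the other Floxed mice. It was also at 7.86 in LKO mouse 5, below the 8.90 to 9.30 of the other LKO mice. Abcb11 was at 13.96 in Floxed mouse 2, below the 14.38 to 14.60 of the other Floxed mice.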

How the results depend on the processing

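Over 260 values of the 10 genes under 26 alternatives each, 232 kept the sign and the side of the threshold, 24 changed sign without being called, and 4 were called, namely Cyp27a1 (log2 difference -0.53) and Nr0b2 (0.44) on slide 2 alone, Nr0b2 without LKO mouse 5 and Cyp27a1 without LKO mouse 6. Leaving out each array in turn gave 0 to 1 called bile acid genes, 1103 to 1837 called tested genes and 2 to 5 called genes of the other lists, with 5 without Floxed mouse 6 and 4 without Floxed mouse 2 or LKO mouse 2. It gave log2 differences of -0.26 to 0.33 for Cyp7a1, -0.035 to 0.047 for Baat, -0.12 to 0.034 for Slc10a1, -0.024 to 0.12 for Abcb11, -0.11 to 0.074 for Nr1h4, 0.012 to 0.44 for Cyp8b1, -0.54 to -0.26 for Cyp7b1, -0.37 to -0.18 for Cyp27a1, 0.26 to 0.72 for Nr0b2 and -0.11 to -0.0097 for Slco1b2. Slide 2 alone gave 2 called bile acid genes, 512 tested genes and 1 gene of the other lists (Slc51b). Slide as a fixed block called 0, 317 and 0. Both settings, the same contrast, gave -0.32 for Cyp8b1, 0.11 for Slc10a1 and -0.043 for Cyp46a1. Abcc4 was not called in either (0.25). Slide as a random block, with an estimated correlation of -0.066, called 5 genes of the other lists and 1921 of 16894 tested genes. It gave 0.021 for Cyp7a1 and -0.00016 for Baat. Without both LKO arrays of slide 2, 2172 tested genes and 6 genes of the other lists were called, with 0.050 for Cyp7a1, -0.0014 for Baat and 0.0016 for Nr1h4. Normexp gave -0.0062 for Baat. Normexp and 75th percentile scaling each called 3 genes of the other lists, with Abcb1a added. Without the filter 2791 of 32523 genes were called, and on adjusted p 0 genes of any kind. The methods' t-test called 0 of the 10 genes and 1236 of 16913 tested genes. Scaling by the 75th percentile of each array called 1127 genes higher and 316 lower, against 832 and 581. With subtracted slide means or 75th percentile scaling, 0 pairs passed, although r under that scaling was 0.69 for Slc10a1 and Slco1b2 and 0.73 for Cyp7b1 and Abcb11 (adjusted permutation p of 0.135 for both). The replicate number as a block called 0 of the 10 genes, 1428 tested genes and 3 genes of the other lists, with an unadjusted limma p of 0.0561 for Cyp27a1, and 3 of the 12 mice correlated best with their own number. The cause of these changes was not tested. The number of arrays and the spread among mice limit the intervals.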
